A study of Mus musculus with 8 samples.

Results

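The genes described here are 40 mouse genes of glycolysis, lactate and pyruvate handling, oxygen sensing and the response to hypoxia, chosen by name and matched by symbol to the gene identifiers of the count files. They are 40 of 55450 identifiers, and 34 of them were among the 14641 genes with enough counts to be tested. They were read in 8 libraries of polyadenylated RNA from PyMT-1099 cells, a line from a mouse mammary tumour driven by the polyoma middle T oncogene in which TGF-β drives epithelial to mesenchymal transition. The 4 groups of 2 libraries were Agps KO cells after 10 days with 2 ng/ml TGF-β, untreated Agps KO cells, WT parental cells after the same treatment, and untreated WT parental cells. All groups grew in high glucose medium with serum, and no label describes a change of oxygen. The 4 KO libraries carry the same line label, SCC10, so an effect of the loss of Agps and a property of that line cannot be told apart. No label says whether the replicates are separate cultures. The p-values therefore set each difference against the variation among these libraries only, and that variation may be technical.

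In glycolysis a cell splits glucose into pyruvate in the cytosol: glucose enters through GLUT transporters, hexokinase traps it, phosphofructokinase commits it, and later enzymes harvest ATP. Lactate dehydrogenase can then turn pyruvate into lactate, which leaves through monocarboxylate transporters, while pyruvate dehydrogenase kinases switch off pyruvate dehydrogenase. Many of these genes are targets of the hypoxia-inducible factors HIF-1α and HIF-2α, which prolyl hydroxylases mark for destruction when oxygen is present. Tumour cells often run glycolysis with oxygen at hand, and TGF-β is known to alter it during epithelial to mesenchymal transition.

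Hypoxia-inducible factors bind a short core sequence, ACGTG or GCGTG. The 250 bases before each gene start were read from RefSeq (GRCm38.p6), where 36 of the 40 genes matched by symbol. The 7 windows printed here belong to the members called with a log2 change of at least 1 in size whose log2 CPM averaged 1 or more and which have 1 listed start, and together they show how unevenly the core occurs in genes that moved in different directions. Capitals mark ACGTG or GCGTG on either strand (read as CACGT or CACGC where it lies on the other strand), and overlapping matches run together:
Slc2a1 (chr4:119108495-119108744, + strand): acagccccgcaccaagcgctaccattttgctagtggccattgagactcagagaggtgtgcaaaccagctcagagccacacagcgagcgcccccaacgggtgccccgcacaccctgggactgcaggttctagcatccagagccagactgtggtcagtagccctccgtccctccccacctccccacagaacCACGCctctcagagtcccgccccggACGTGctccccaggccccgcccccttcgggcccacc
Hk2 (chr6:82774455-82774704, - strand): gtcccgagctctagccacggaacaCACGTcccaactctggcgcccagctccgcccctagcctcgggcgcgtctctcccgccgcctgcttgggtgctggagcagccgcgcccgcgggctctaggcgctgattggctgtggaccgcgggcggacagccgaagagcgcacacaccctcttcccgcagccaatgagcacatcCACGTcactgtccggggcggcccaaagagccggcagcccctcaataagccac
Pfkfb4 (chr9:108991652-108991901, + strand): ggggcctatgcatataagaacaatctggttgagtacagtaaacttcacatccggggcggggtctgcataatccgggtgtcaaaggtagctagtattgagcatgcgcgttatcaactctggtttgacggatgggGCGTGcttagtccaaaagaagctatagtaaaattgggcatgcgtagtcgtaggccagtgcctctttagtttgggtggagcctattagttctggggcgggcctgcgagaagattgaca
Slc16a1 (chr3:104638414-104638663, + strand): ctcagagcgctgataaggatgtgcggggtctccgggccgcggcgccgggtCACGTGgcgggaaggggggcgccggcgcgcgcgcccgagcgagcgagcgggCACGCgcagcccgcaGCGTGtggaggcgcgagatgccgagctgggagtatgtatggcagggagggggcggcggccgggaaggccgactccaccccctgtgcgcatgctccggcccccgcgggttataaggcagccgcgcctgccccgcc
Egln3 (chr12:54203875-54204124, - strand): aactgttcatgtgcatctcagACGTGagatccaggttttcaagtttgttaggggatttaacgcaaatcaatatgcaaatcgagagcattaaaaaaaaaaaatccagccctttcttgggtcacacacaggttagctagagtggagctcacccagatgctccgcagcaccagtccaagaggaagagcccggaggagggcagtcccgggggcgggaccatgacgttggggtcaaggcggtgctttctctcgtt
Bnip3 (chr7:138909507-138909756, - strand): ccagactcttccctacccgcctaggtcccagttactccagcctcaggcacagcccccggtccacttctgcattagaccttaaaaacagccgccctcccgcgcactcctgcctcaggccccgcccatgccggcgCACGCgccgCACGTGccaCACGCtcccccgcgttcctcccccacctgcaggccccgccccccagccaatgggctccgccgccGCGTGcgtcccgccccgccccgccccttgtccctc
Ddit4 (chr10:59951771-59952020, - strand): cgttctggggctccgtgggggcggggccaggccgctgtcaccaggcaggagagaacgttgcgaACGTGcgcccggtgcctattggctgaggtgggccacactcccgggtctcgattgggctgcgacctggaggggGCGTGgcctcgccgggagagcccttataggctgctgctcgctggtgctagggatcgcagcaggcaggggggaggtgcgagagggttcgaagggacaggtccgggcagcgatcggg
Slc16a1 held 4 matches and Bnip3 5, in both cases including the palindrome CACGTG, whereas Pfkfb4 and Egln3 held 1 each. A match was present in at least 1 window of 33 of the 36 members (91.7%), against 41.5% of 27025 genes. The members were chosen by name, many as known targets of hypoxia-inducible factors. The 27025 are all genes with a listed start, whether or not they were tested here. The part of that choice in the shares was not tested. Over single windows, to allow for genes with several starts, the shares were 77.8% of 54 member windows and 38.6% of 32851 windows of all genes. The members' windows were also richer in G and C, with a median of 62.3% against 52.4% over all genes, and the part of base composition in the shares was not tested. CAGAC, a sequence bound by SMAD proteins, which carry the TGF-β signal to the nucleus, occurred in 50% of members and 45.8% of all genes.

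Library totals ran from 17007268 to 21311831 counts, and the 40 genes took 0.485% to 0.860% of them. Agps fell in KO cells by 3.46 ± 0.12 on the log2 scale without TGF-β and by 2.74 ± 0.11 with it (SE), and stood at 43.9 and 35.6 CPM (counts scaled to a common library size) in KO cells with TGF-β and 32.9 and 29.3 CPM in untreated KO cells, against 265 and 266 CPM in WT cells with TGF-β and 357 and 329.8 CPM in untreated WT cells. Of 6 mammary epithelial markers Krt8, Krt18 and Cdh1 were above 50 CPM in every library, while Epcam had 0 counts in all 8. Of the 5 tested, 1 rose and 2 fell with TGF-β in KO cells and 1 rose and 4 fell in WT cells. Krt14 rose in both lines (log2 changes of 5.01 ± 0.30 in KO and 3.80 ± 0.32 in WT cells), and Cdh1 fell (-2.53 ± 0.11 and -2.26 ± 0.11). Summed CPM of these 6 was 3106 to 3298 in KO cells with TGF-β, 3109 to 3249 in untreated KO cells, 2800 to 2959 in WT cells with TGF-β and 4183 to 4579 in untreated WT cells. Of 5 immune markers Cd68 alone was tested and rose with TGF-β, with list sums of at most 12.4 CPM. The 4 endothelial markers summed to 76.5 CPM in both WT libraries with TGF-β and to at most 8.24 CPM elsewhere, nearly all of it Cdh5, with Pecam1, Kdr and Tek below 1 CPM in all 8 libraries. The 3 adipocyte markers were at or next to 0. In bulk RNA a change in the cells' makeup and a change of RNA per cell cannot be told apart, and the part of these shifts in the results was not tested.

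**Figure D1:**
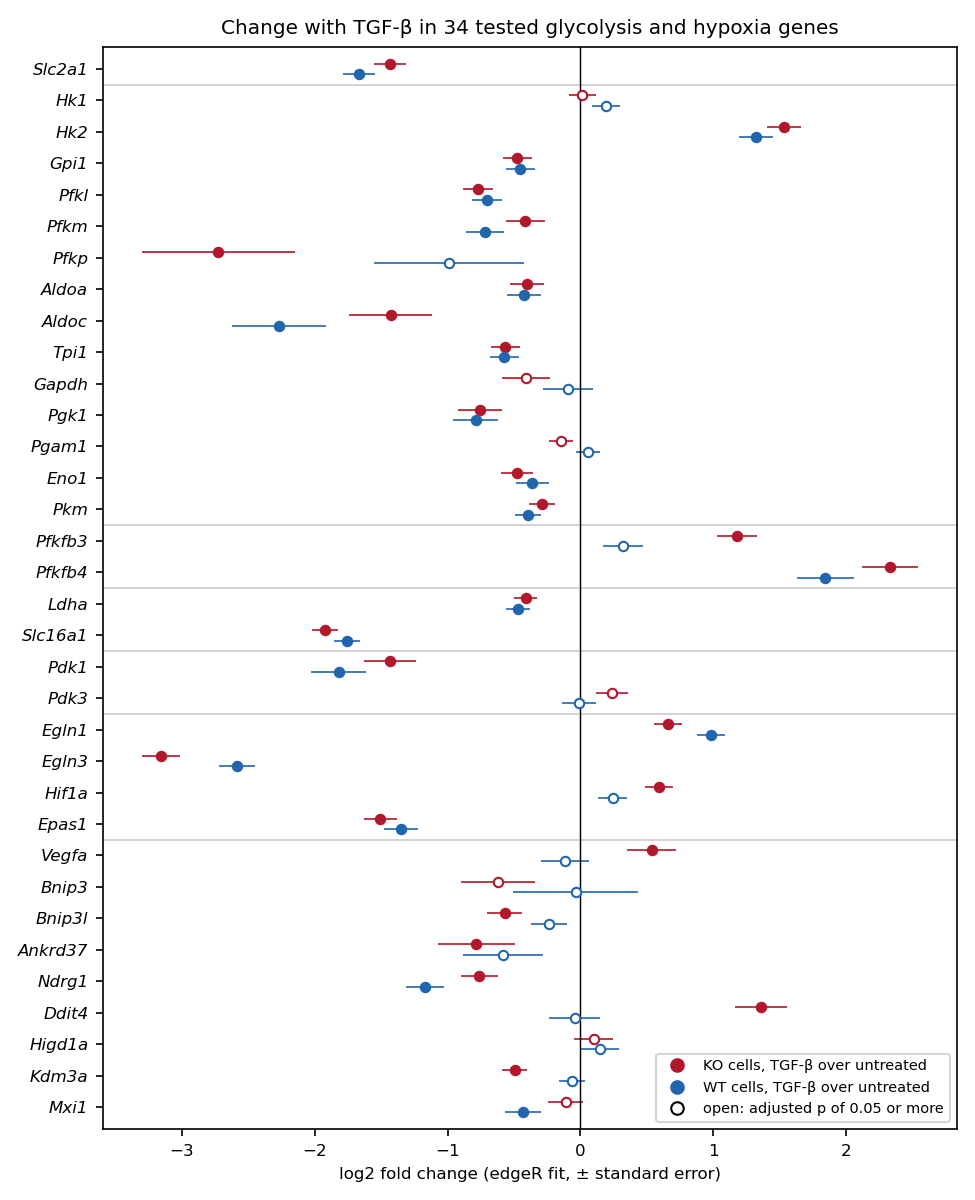
Log2 fold change with TGF-β (x axis) of each tested member (rows, by role) in KO cells and in WT cells, from the fit over all 14641 genes, with bars of 1 SE and filled points for adjusted p under 0.05. Egln3 lies lowest in both lines (-3.16 in KO and -2.58 in WT cells) and Pfkfb4 highest (2.33 and 1.84). Ddit4 is the 1 member of 34 (2.94%) called for a difference between the lines, where 2.40% of all tested genes were. That call was lost when some of the libraries were left out.

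The first question is how these genes respond to TGF-β in each line. In KO cells 27 of the 34 tested members passed the test (79.4%, 7 higher and 20 lower), where 41.4% of all tested genes passed (20.9% higher and 20.6% lower). In WT cells 20 of 34 passed (58.8%, 3 higher and 17 lower), where 42.5% of all tested genes did (21.3% higher and 21.2% lower). A gene passed at an adjusted p under 0.05 in edgeR's quasi-likelihood test, fitted on all 8 libraries and adjusted by Benjamini-Hochberg over the 14641 genes. The members' median log2 change was -0.44 in KO cells and -0.41 in WT cells, against -0.0002 and 0.008 over all tested genes. The 2 contrasts share no library. Of the genes that fell, 16 fell in both lines, which is 80% of the 20 in KO cells and 94.1% of the 17 in WT cells. Hk2, Pfkfb4 and Egln1 rose in both, 42.9% of the 7 in KO cells and 100% of the 3 in WT cells. The sign was shared by 30 of 34. These overlaps were not worked out over all tested genes, so whether the members agree more than other genes was not tested. A log2 change of at least 1 in size was seen for 11 of the called members in KO cells, where 18.1% of all tested genes were called at that size, and for 9 in WT cells, where 18.4% were.

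**Figure D2:**
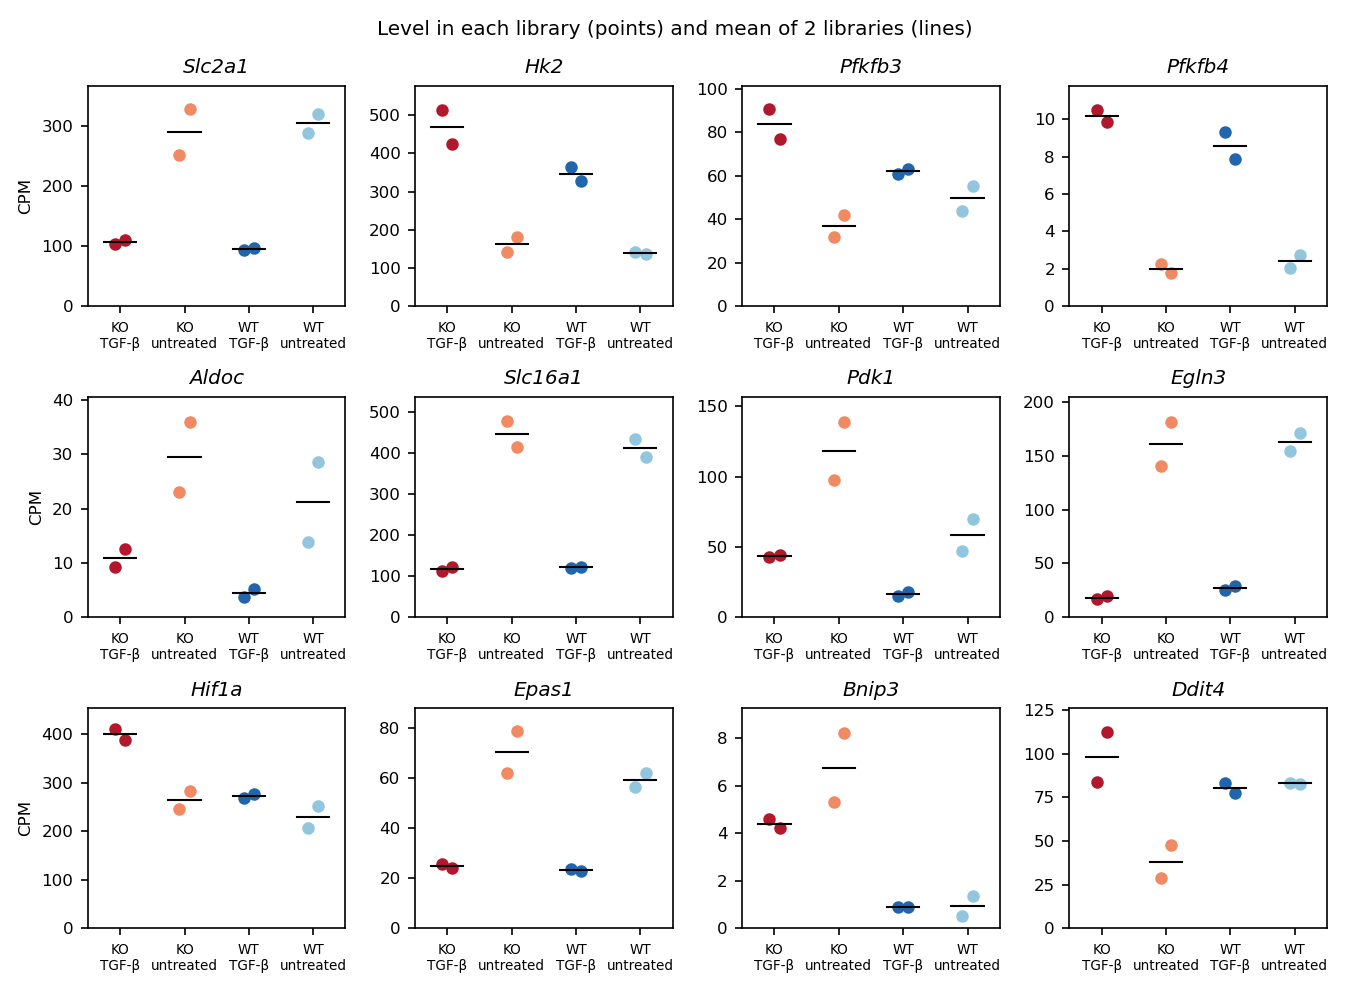
CPM after scaling (y axis, from 0, 1 panel per gene) in each library as a point, with the group mean as a line, for KO with TGF-β, untreated KO, WT with TGF-β and untreated WT from left to right. Slc2a1, Slc16a1 and Egln3 sit low in both TGF-β groups and Hk2 sits high, with no overlap with the untreated libraries of the same line, whereas Ddit4 sits low in the untreated KO libraries (28.9 and 47.5 CPM).

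Of the 2 glucose transporter genes among the members, nearly all RNA was Slc2a1, which encodes GLUT1, the basal glucose transporter of most proliferating cells (ENSMUSG00000028645, chromosome 4, 119108711 to 119137983, GRCm38 as are all positions here). Of 7 other glucose transporter genes 3 were tested, and their levels were not set beside these. Slc2a1 stood at 104 and 111 CPM in KO cells with TGF-β, against 252 and 328 CPM in untreated KO cells, and at 94.5 and 97.4 CPM in WT cells with TGF-β, against 289.5 and 321 CPM in untreated WT cells. All 4 libraries with TGF-β lay below all 4 without it. Its log2 change was -1.43 ± 0.12 in KO cells (adjusted p = 1.91e-06) and -1.67 ± 0.12 in WT cells (adjusted p = 6.43e-07). The GLUT3 gene Slc2a3 had 0 to 4 counts per library and was not tested.

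Hexokinase went the other way. Hk2 encodes the inducible hexokinase II that is bound to mitochondria in many tumours (ENSMUSG00000000628, chromosome 6, 82725025 to 82774454). It stood at 515 and 424 CPM in KO cells with TGF-β, against 143 and 181 CPM in untreated KO cells, and at 365 and 328 CPM in WT cells with TGF-β, against 141 and 136 CPM in untreated WT cells. The rise was 1.53 ± 0.13 on the log2 scale in KO cells (adjusted p = 1.81e-06) and 1.32 ± 0.13 in WT cells (adjusted p = 6.76e-06), and the libraries did not overlap. Hk1, the constitutive isoform, was at 162 to 209.6 CPM in the 8 libraries, and its log2 changes of 0.02 ± 0.10 in KO and 0.19 ± 0.10 in WT cells did not pass. Per exon length, in TPM, Hk2 made up 79.1% and 75.8% of the sum of Hk1 and Hk2 in KO cells with TGF-β, against 54.1% and 55.3% in untreated KO cells, and 72.8% and 70.0% in WT cells with TGF-β, against 55.4% and 51.4% in untreated WT cells.

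**Figure D3:**
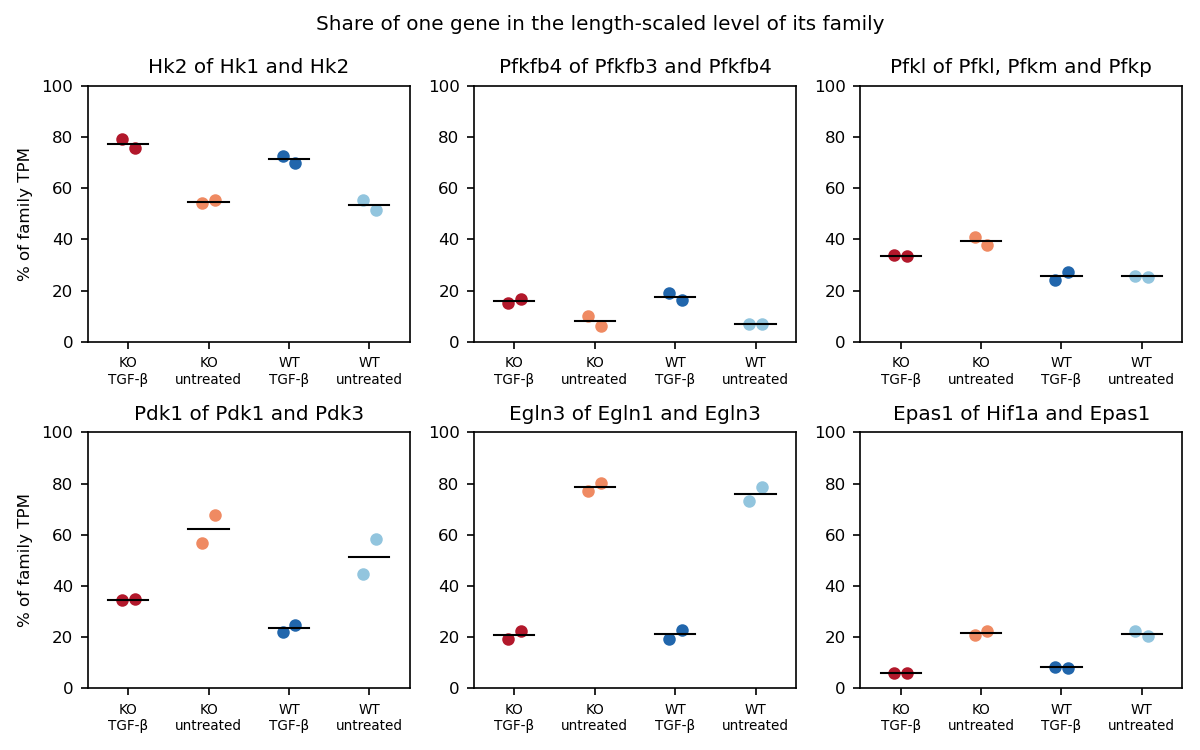
Share of the TPM of a pair or family held by 1 member (y axis, percent from 0, 1 panel per family) in each library as a point, by group, with the group mean as a line. Hk2 holds a larger share with TGF-β than untreated in both lines, and Egln3 drops to 19.3% to 22.8% with TGF-β, against 73.2% to 80.4% untreated.

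Of the phosphofructokinase genes, Pfkl and Pfkm fell in both lines. Pfkl, the liver-type subunit, was at 108 and 118 CPM in KO cells with TGF-β, against 174 and 209 CPM in untreated KO cells, and at 81.8 and 84.8 CPM in WT cells with TGF-β, against 124 and 147 CPM in untreated WT cells. Its log2 change of -0.77 ± 0.11 in KO and -0.70 ± 0.11 in WT cells passed in both (adjusted p = 0.000181 and 0.000408). Pfkm, the muscle-type subunit, stood at 105 and 117 CPM in KO cells with TGF-β, against 125 and 170.5 CPM in untreated KO cells, and at 128 and 113 CPM in WT cells with TGF-β, against 179.6 and 216 CPM in untreated WT cells. These were log2 changes of -0.41 ± 0.14 and -0.72 ± 0.14 (adjusted p = 0.0381 in KO and 0.00191 in WT cells). The call in KO cells was lost without the first KO library with TGF-β (-0.33), the second (-0.49), the second untreated KO library (-0.18) or the second WT library with TGF-β (-0.41), and the value was -0.62 without the first untreated KO library. Pfkp, the platelet-type subunit, had 3 to 36 counts per library and passed the low-count filter through the untreated groups, so its log2 change of -2.73 ± 0.58 in KO cells (adjusted p = 0.00254) rests on few counts, and -0.99 ± 0.56 in WT cells did not pass (adjusted p = 0.186).

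Of the other glycolytic enzymes, the 3-carbon enzyme Tpi1, the aldolases Aldoa and Aldoc, and Gpi1, Pgk1, Eno1 and Pkm fell in both lines, mostly by less than 1 on the log2 scale. Tpi1 fell by 0.56 ± 0.11 in KO and 0.57 ± 0.11 in WT cells, Gpi1 by 0.47 ± 0.11 and 0.45 ± 0.11, and Pgk1 by 0.75 ± 0.17 and 0.79 ± 0.17. Pkm, which encodes the pyruvate kinase that ends glycolysis, stood at 901 and 1036 CPM in KO cells with TGF-β, against 1126 and 1239 CPM in untreated KO cells, and at 794 and 744 CPM in WT cells with TGF-β, against 1020.0 and 998 CPM in untreated WT cells. The largest of these falls was that of Aldoc, an aldolase best known from brain (ENSMUSG00000017390, chromosome 11, 78322968 to 78327781). Aldoc was at 9.30 and 12.6 CPM in KO cells with TGF-β, against 23.0 and 35.9 CPM in untreated KO cells, and at 3.66 and 5.18 CPM in WT cells with TGF-β, against 13.9 and 28.6 CPM in untreated WT cells. Its log2 change was -1.43 ± 0.31 in KO cells (adjusted p = 0.0033) and -2.27 ± 0.35 in WT cells (adjusted p = 0.000334), yet it held at most 3.90% of aldolase TPM beside Aldoa. Pgam1 did not pass in either line (-0.15 ± 0.09 in KO and 0.06 ± 0.09 in WT cells), nor did Gapdh (-0.41 ± 0.18 and -0.09 ± 0.19), and Eno2 had 0 to 13 counts and was not tested.

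Several of these enzyme calls were lost when 1 library was left out. Such a fit rests on fewer libraries, and a lost call alone does not single out the library left out. Why the calls were lost was not tested. Without the first KO library with TGF-β the changes in KO cells of Aldoa (-0.27), Aldoc (-1.22), Eno1 (-0.33) and Pkm (-0.19) no longer passed, and without the second untreated KO library those of Aldoa (-0.22) and Pkm (-0.22) did not. Pkm in KO cells was also lost without either WT library with TGF-β (-0.29 each) or when the untreated and TGF-β KO libraries alone were fitted (-0.29). In WT cells the fall of Aldoa was lost without either library with TGF-β (-0.40 and -0.45) or without the second untreated one (-0.32), that of Eno1 without either untreated library (-0.34 and -0.39) or the second with TGF-β (-0.24), that of Gpi1 without the first with TGF-β (-0.41), and that of Pkm without the second (-0.35). Several of these genes also share sequence with pseudogenes, so that their counts may have been divided by the authors' counting. Of the 50-base stretches of transcripts, 53.9% for Pgk1, 36.2% for Pgam1, 26.0% for Eno1, 24.7% for Gapdh, 14.2% for Pkm, 8.4% for Gpi1 and 6.4% for Aldoa occur in other genes. Of the exon bases, 15.3% for Pkm and 10.2% for Pfkm lie under another gene on the same strand. Gapdh, shared with 222 genes, had only 151 to 348 counts per library, and its level is uncertain.

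The PFKFB enzymes set fructose 2,6-bisphosphate, the activator of phosphofructokinase, and both genes rose in KO cells. Pfkfb4 (ENSMUSG00000025648, chromosome 9, 108991778 to 109032228) stood at 10.5 and 9.87 CPM in KO cells with TGF-β, against 2.27 and 1.76 CPM in untreated KO cells, and at 9.33 and 7.87 CPM in WT cells with TGF-β, against 2.06 and 2.75 CPM in untreated WT cells. Pfkfb3, the isoform with the strongest kinase activity (ENSMUSG00000026773, chromosome 2, 11471433 to 11554077), stood at 90.8 and 77.2 CPM in KO cells with TGF-β, against 32.0 and 42.1 CPM in untreated KO cells, and at 61.0 and 63.0 CPM in WT cells with TGF-β, against 43.7 and 55.4 CPM in untreated WT cells. Pfkfb4 changed by 2.33 ± 0.21 in KO and 1.84 ± 0.21 in WT cells on the log2 scale (adjusted p = 3.76e-06 and 3.14e-05). Pfkfb3 rose by 1.18 ± 0.15 in KO cells (adjusted p = 6.12e-05), while 0.32 ± 0.15 in WT cells did not pass (adjusted p = 0.105), and the difference of 0.86 ± 0.21 between the lines did not pass either (adjusted p = 0.0618). Pfkfb3 remained the main form per length, with 80.8% to 93.9% of the TPM of the pair in the 8 libraries.

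The RNA of a lactate transporter showed one of the steepest falls. Slc16a1 encodes MCT1, which carries lactate and pyruvate across the plasma membrane (ENSMUSG00000032902, chromosome 3, 104638668 to 104658462). It stood at 113 and 122 CPM in KO cells with TGF-β, against 478 and 413 CPM in untreated KO cells, and at 121 and 122 CPM in WT cells with TGF-β, against 433 and 391 CPM in untreated WT cells. The log2 change was -1.92 ± 0.10 in KO and -1.76 ± 0.10 in WT cells (adjusted p = 3.9e-08 and 8.28e-08). Ldha, the lactate dehydrogenase subunit that favours lactate, stood at 736 and 794 CPM in KO cells with TGF-β, against 986 and 1051 CPM in untreated KO cells, and at 515 and 543 CPM in WT cells with TGF-β, against 763 and 700.5 CPM in untreated WT cells. It fell by 0.41 ± 0.09 in KO and by 0.47 ± 0.09 in WT cells, and the libraries did not overlap in either line. Ldhb had 0 to 2 counts and Slc16a3, the gene of the other main lactate exporter MCT4, 0 to 1 counts per library. A library with 0 counts is compatible with up to 3 counts, counting error only.

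Of the 2 pyruvate control genes among the members, the one that passed was Pdk1, a kinase that switches off pyruvate dehydrogenase (ENSMUSG00000006494, chromosome 2, 71873224 to 71903858). Other genes of pyruvate entry and pyruvate dehydrogenase are counted only within the wider set below. Pdk1 was at 43.2 and 44.2 CPM in KO cells with TGF-β, against 97.3 and 139 CPM in untreated KO cells, and at 14.8 and 18.3 CPM in WT cells with TGF-β, against 47.3 and 69.7 CPM in untreated WT cells. It fell by 1.43 ± 0.19 on the log2 scale in KO and by 1.82 ± 0.21 in WT cells (adjusted p = 0.000102 and 2.79e-05). Pdk3, a second kinase of the same enzyme, lay between 16.4 and 27.3 CPM in all libraries and did not pass in either line (0.24 ± 0.12 in KO and -0.01 ± 0.13 in WT cells). Of the summed TPM of Pdk1 and Pdk3, Pdk1 held 34.5% and 34.8% in KO cells with TGF-β, against 56.8% and 67.8% in untreated KO cells, and 22.1% and 24.8% in WT cells with TGF-β, against 44.7% and 58.3% in untreated WT cells.

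Oxygen sensing changed composition. Egln3 encodes PHD3, a prolyl hydroxylase that is itself induced by hypoxia-inducible factors (ENSMUSG00000035105, chromosome 12, 54178981 to 54203860). Egln3 was at 16.7 and 19.3 CPM in KO cells with TGF-β, against 141 and 181 CPM in untreated KO cells, and at 25.3 and 29.0 CPM in WT cells with TGF-β, against 154 and 171 CPM in untreated WT cells. The log2 change of -3.16 ± 0.14 in KO and -2.58 ± 0.14 in WT cells was the lowest among the members tested in either line (adjusted p = 1.46e-08 and 6.04e-08). Egln1, the gene of PHD2, the main oxygen sensor for HIF-1α, rose by 0.66 ± 0.11 in KO and 0.98 ± 0.11 in WT cells (adjusted p = 0.000364 and 1.64e-05). Egln1 stood at 94.0 and 90.1 CPM in KO cells with TGF-β, against 56.8 and 59.6 CPM in untreated KO cells, and at 142 and 133 CPM in WT cells with TGF-β, against 76.4 and 62.6 CPM in untreated WT cells. Egln3 held 19.3% and 22.5% of the TPM of the pair in KO cells with TGF-β, against 77.0% and 80.4% in untreated KO cells, and 19.4% and 22.8% in WT cells with TGF-β, against 73.2% and 78.7% in untreated WT cells.

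Of the factors themselves, Epas1, which encodes HIF-2α (ENSMUSG00000024140, chromosome 17, 86753700 to 86833410), fell in both lines. Epas1 was at 25.5 and 23.9 CPM in KO cells with TGF-β, against 62.1 and 78.5 CPM in untreated KO cells, and at 23.6 and 22.9 CPM in WT cells with TGF-β, against 56.4 and 62.0 CPM in untreated WT cells. That was a log2 change of -1.51 ± 0.12 in KO cells (adjusted p = 1.79e-06) and -1.35 ± 0.13 in WT cells (adjusted p = 5.36e-06). Hif1a, which encodes HIF-1α (ENSMUSG00000021109, chromosome 12, 73901375 to 73947530), was at 411 and 389 CPM in KO cells with TGF-β, against 247 and 284 CPM in untreated KO cells, and at 268 and 277 CPM in WT cells with TGF-β, against 208 and 253 CPM in untreated WT cells. Hif1a rose by 0.59 ± 0.11 in KO cells (adjusted p = 0.000901), and 0.24 ± 0.11 in WT cells did not pass (adjusted p = 0.0907), with a difference between the lines of 0.35 ± 0.15 (adjusted p = 0.332). Epas1 made up 6.15% and 6.10% of the TPM of both factors in KO cells with TGF-β, against 20.9% and 22.6% in untreated KO cells, and 8.49% and 8.02% in WT cells with TGF-β, against 22.3% and 20.5% in untreated WT cells. HIF proteins are set mainly after transcription, and no protein was measured.

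Of the 11 hypoxia-induced genes 9 were tested. In KO cells 2 rose and 4 fell, where 20.9% of all tested genes rose and 20.6% fell, and in WT cells 2 fell and 0 rose, a smaller share than the 42.5% of all tested genes that passed there. Ndrg1, a gene induced by hypoxia and stress (ENSMUSG00000005125, chromosome 15, 66929318 to 66969640), stood at 223 and 246 CPM in KO cells with TGF-β, against 355 and 439.9 CPM in untreated KO cells, and at 169 and 186 CPM in WT cells with TGF-β, against 344 and 455 CPM in untreated WT cells. It fell by 0.76 ± 0.14 in KO and 1.17 ± 0.14 in WT cells on the log2 scale (adjusted p = 0.000976 and 4.24e-05). Kdm3a, a histone demethylase, fell by 0.50 ± 0.10 in KO cells, against -0.06 ± 0.10 in WT cells, which did not pass. Vegfa, the angiogenic growth factor, rose by 0.54 ± 0.18 in KO cells (adjusted p = 0.0352), at 433 and 408 CPM with TGF-β against 239 and 339.8 CPM untreated, while -0.12 ± 0.18 in WT cells did not pass. The mitophagy receptor gene Bnip3l fell by 0.57 ± 0.13 and the nuclear ankyrin repeat gene Ankrd37 by 0.78 ± 0.29 in KO cells, and Mxi1, a MYC antagonist, fell by 0.43 ± 0.14 in WT cells. Bnip3, a mitophagy receptor gene related to Bnip3l (-0.62 ± 0.28 in KO and -0.04 ± 0.47 in WT cells), and Higd1a, which acts at the respiratory chain (0.10 ± 0.14 and 0.15 ± 0.15), did not pass in either line. Car9, the classical hypoxia marker carbonic anhydrase IX, had 0 to 6 counts per library and Adm, the vasodilator adrenomedullin, 0 to 2, in all 8 libraries.

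Several of the smaller calls in this group were lost when 1 library was left out. Vegfa in KO cells no longer passed without the first untreated KO library (0.30), the first KO library with TGF-β (0.50), the second (0.58) or in DESeq2 (0.55), and was 0.81 without the second untreated KO library. Bnip3l was lost without the first KO library with TGF-β (-0.51) and was -0.36 without the second untreated one. Mxi1 in WT cells was lost without either library with TGF-β (-0.40 and -0.46) or the second untreated one (-0.33). Ankrd37, whose adjusted p was 0.0482, was lost under 8 of the alternatives, with values of -0.29 to -0.98, and 26.4% of its exon bases lie under genes of the opposite strand.

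The next question is how KO cells differ from WT cells in the same medium. Without TGF-β, 10 of 34 tested members passed (29.4%, 9 higher and 1 lower), where 13.7% of all tested genes passed (4.72% higher and 8.94% lower). With no filter on low counts 17 of 40 members passed, where 2490 of 30946 genes did. With a replicate block 17 of 34 members passed, where 2659 of 14641 genes did. With TGF-β, 15 passed (44.1%, 13 higher and 2 lower), where 17.9% of all tested genes did (6.82% higher and 11.1% lower). The members' median log2 difference was 0.25 without and 0.30 with TGF-β, against 0 and 0.0061 over all tested genes. Aldoa, Bnip3, Ldha, Pdk1, Pfkl, Pgam1 and Tpi1 were higher in KO cells in both conditions, which is 53.8% of the 13 with and 77.8% of the 9 without TGF-β. The same sign was seen for 25 of 34 members. Here too the overlap over all tested genes was not worked out. The 2 contrasts share no library. A log2 difference of at least 1 in size was called for 3 members without TGF-β (4.49% of all tested genes) and 3 with it (6.28%). With either WT library with TGF-β left out, 7 members passed instead of 15.

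**Figure D4:**
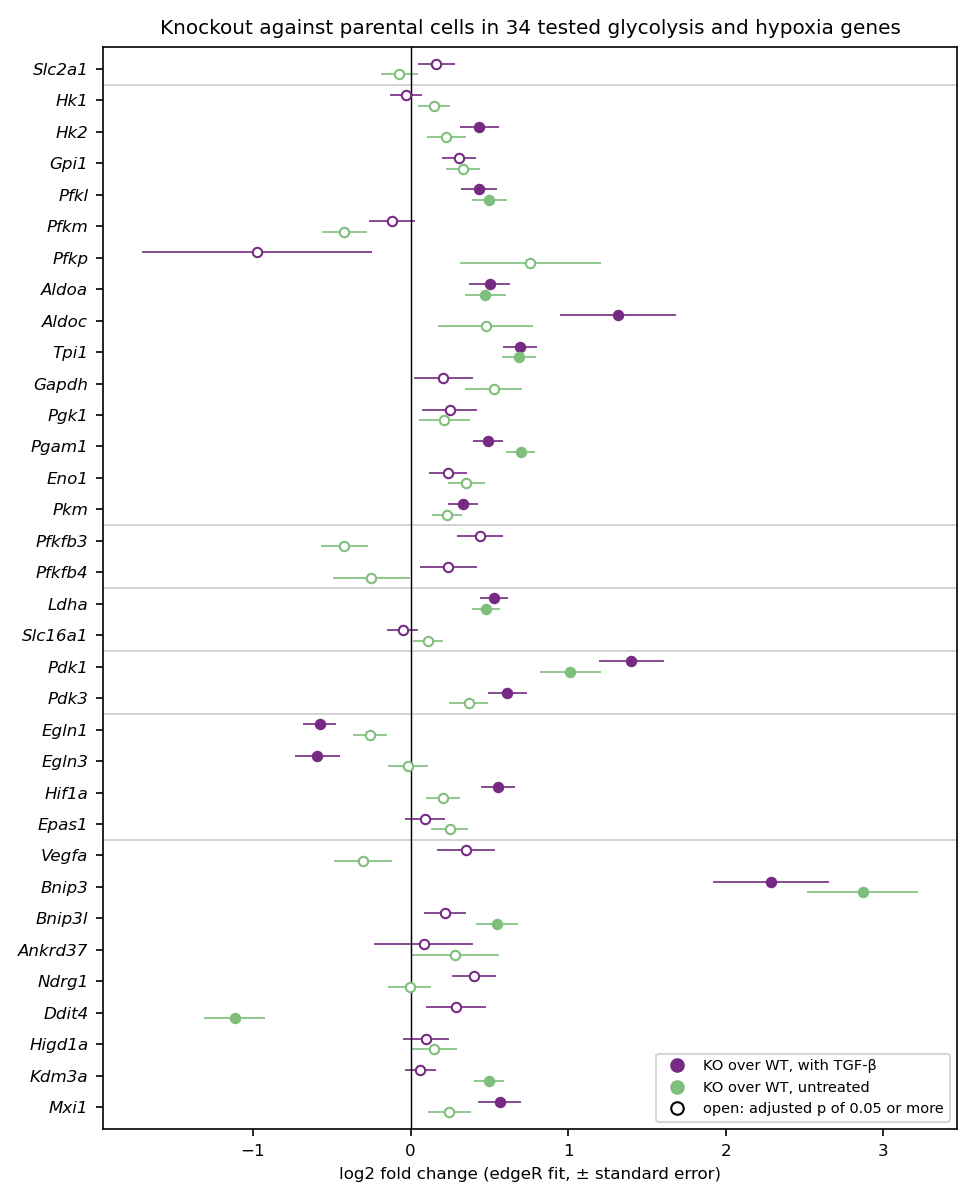
Log2 difference of KO against WT cells (x axis) of each tested member (rows, by role), with TGF-β and without, bars of 1 SE, filled points for adjusted p under 0.05. Bnip3 lies highest in both conditions (2.29 with and 2.87 without TGF-β), most glycolytic enzymes lie right of 0, and Ddit4 lies at -1.12 without TGF-β.

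The enzymes higher in KO cells in both conditions span the pathway. Ldha was higher by 0.53 ± 0.09 with TGF-β and 0.48 ± 0.09 without (adjusted p = 0.00184 and 0.00412), and no KO library overlapped a WT library of the same condition. Tpi1 stood at 445 and 501 CPM in KO and 274 and 309.9 CPM in WT cells with TGF-β, and at 654 and 745 CPM in KO and 405 and 462 CPM in WT cells without it. That was a log2 difference of 0.70 ± 0.11 with and 0.69 ± 0.11 without TGF-β (adjusted p = 0.00122 and 0.00149). Pgam1 was higher by 0.49 ± 0.09 with and 0.70 ± 0.09 without TGF-β, Pfkl by 0.43 ± 0.11 and 0.50 ± 0.11, and Aldoa by 0.50 ± 0.13 and 0.47 ± 0.13. Of the phosphofructokinase TPM, Pfkl held 33.9% and 33.4% in KO and 24.2% and 27.4% in WT cells with TGF-β, and 41.0% and 38.0% in KO and 25.7% and 25.4% in WT cells without it. Pfkm was not called (-0.12 ± 0.14 with and -0.42 ± 0.14 without TGF-β, adjusted p = 0.647 and 0.0802), and without TGF-β it stands beside a median of -0.17 over the tested genes of chromosome 15. Slc2a1 (0.16 ± 0.12 with and -0.07 ± 0.12 without TGF-β) and Slc16a1 (-0.05 ± 0.10 and 0.11 ± 0.09) did not pass. Slc16a1 lies on chromosome 3, where the median over tested genes was -0.30 with and -0.28 without TGF-β, and whether it differs from that median was not tested.

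Among the members higher in KO cells, Pdk1 and Bnip3 had log2 differences above 1 in both conditions. Pdk1, with the CPM values given above, was higher in KO cells by 1.40 ± 0.21 with and 1.02 ± 0.19 without TGF-β (adjusted p = 0.000892 and 0.0044), and no KO library overlapped a WT library of the same condition. Bnip3 (ENSMUSG00000078566, chromosome 7, 138890836 to 138909519) stood at 4.60 and 4.21 CPM in KO and 0.901 and 0.894 CPM in WT cells with TGF-β, and at 5.31 and 8.21 CPM in KO and 0.527 and 1.35 CPM in WT cells without it. Its log2 difference was 2.29 ± 0.37 with and 2.87 ± 0.35 without TGF-β (adjusted p = 0.00153 and 0.000317), on 10 to 177 counts per library. Of the 50-base stretches of Bnip3 transcripts 36.9% occur in other genes, 4 of 5 of them pseudogenes, and 22.3% of its exon bases lie under a gene on the opposite strand, so the level is uncertain.

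With TGF-β, Hif1a was higher in KO cells by 0.55 ± 0.11, Pdk3 by 0.61 ± 0.12, Hk2 by 0.44 ± 0.12, Pkm by 0.33 ± 0.10, Mxi1 by 0.57 ± 0.14 and Aldoc by 1.31 ± 0.37 (adjusted p from 0.00436 to 0.0341), and without TGF-β none of these 6 passed. Both prolyl hydroxylase genes were lower in KO cells with TGF-β, Egln1 by -0.58 ± 0.10 (adjusted p = 0.00292) and Egln3 by -0.59 ± 0.14 (adjusted p = 0.0151). Egln1 lies on chromosome 8, where the median of 810 tested genes was -0.47 with and -0.46 without TGF-β, and its own value without TGF-β was -0.26 ± 0.11. Whether its difference is more than that of its chromosome was not tested. Without TGF-β, Kdm3a was higher by 0.50 ± 0.10 and Bnip3l by 0.55 ± 0.13 in KO cells, and Ddit4 lower by -1.12 ± 0.20. None of these passed in the other condition, and for none but Ddit4 did the difference between conditions itself pass.

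Many of the smaller differences between the lines lost their call when 1 library was left out. Some of the estimates grew in size as the call was lost, as for Hk2 without the first WT library with TGF-β. A lost call alone does not single out the library left out, and the reason for these losses was not tested. With TGF-β, leaving out the first WT library ended the calls of Hk2 (0.51), Pfkl (0.40), Aldoa (0.48), Aldoc (1.07), Pkm (0.38), Pdk3 (0.57), Hif1a (0.53) and Mxi1 (0.54). Leaving out the second WT library ended those of Hk2 (0.36), Pfkl (0.46), Aldoa (0.53), Aldoc (1.58), Pgam1 (0.41), Pkm (0.29), Egln3 (-0.49) and Mxi1 (0.59). Without the first KO library with TGF-β, Hk2 (0.29), Pfkl (0.50), Aldoc (1.52) and Egln3 (-0.49) did not pass, and without the second Pfkl (0.39), Aldoa (0.38), Aldoc (1.10), Pkm (0.25) and Mxi1 (0.52) did not. Without TGF-β, Pfkl, Aldoa and Bnip3l did not pass without the second untreated KO library (0.36, 0.29 and 0.34) or without the first untreated WT library (0.38, 0.37 and 0.42), and Aldoa also without either WT library with TGF-β (0.47 each). These 3 calls were also lost when the untreated libraries alone were fitted (0.50, 0.48 and 0.55). Without the genes of chromosomes 3, 8, 15 and X, Aldoa in untreated cells (0.44) and Hk2 (0.41) and Pkm (0.30) with TGF-β did not pass, and in DESeq2 Aldoc with TGF-β (1.32) did not.

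The libraries of a group were not alike in these genes. In untreated KO cells 29 of 34 tested members were higher in the second library than in the first (85.3%, median log2 ratio 0.291), where 51.6% of 12191 genes with a mean of at least 1 CPM were. The shares were 61.8% in KO cells with TGF-β, 50% in WT cells with TGF-β and 67.6% in untreated WT cells. Which condition of the cultures goes with this spread was not tested.

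The design also asks whether the TGF-β change differs between the lines. Of the 34 tested members 1 passed, Ddit4 (2.94%), where 2.40% of all tested genes passed (1.25% higher and 1.15% lower, and 1.39% with a size of at least 1). Ddit4 encodes REDD1, an inhibitor of mTORC1 that is induced by hypoxia and by other stress (ENSMUSG00000020108, chromosome 10, 59949669 to 59951834). It stood at 83.9 and 113 CPM in KO cells with TGF-β, against 28.9 and 47.5 CPM in untreated KO cells, and at 83.4 and 77.7 CPM in WT cells with TGF-β, against 83.1 and 82.7 CPM in untreated WT cells. Only the untreated KO libraries lay apart from the other 6. Ddit4 rose by 1.36 ± 0.20 with TGF-β in KO cells (adjusted p = 0.000169), its log2 change in WT cells was -0.04 ± 0.19 (adjusted p = 0.889), and the KO minus WT difference was 1.40 ± 0.27 (adjusted p = 0.023). The difference no longer passed without the first WT library with TGF-β (1.46, adjusted p = 0.0827), without the second (1.36, adjusted p = 0.102) or without the second KO library with TGF-β (1.19, adjusted p = 0.131). With no filter on low counts 5 of 40 members passed, where 855 of 30946 genes did. In DESeq2 2 of 34 members passed, where 503 of 12937 genes did. Over all alternatives the adjusted p of Ddit4 ran from 3.44e-15 to 0.131.

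Compared per length, the most abundant members as counted were the same 5 in each group, namely Pgam1, Ldha, Aldoa, Pkm and Tpi1. Gapdh, Pgk1, Eno1, Pgam1 and others share sequence with other genes, as given above, and their counts may have been divided. The ranks of these genes and the sums below are therefore uncertain. The group means of the 5 ran from 690.3 to 960.2 TPM in KO cells with TGF-β, 947.5 to 1232 TPM in untreated KO cells, 408.2 to 654.7 TPM in WT cells with TGF-β and 615.4 to 862.2 TPM in untreated WT cells. Within each KO group every neighbouring pair of these 5 overlapped over its libraries, so the order of neighbours there was not resolved. Some pairs further apart did not overlap. In KO cells with TGF-β, Pgam1 (lowest 959.5 TPM) stood above Aldoa (highest 945.7 TPM). In untreated KO cells Ldha (lowest 1187 TPM) stood above Pgam1 (highest 1084 TPM). In untreated WT cells Ldha stood above Pkm and Aldoa above Pgam1 without overlap. The summed TPM of all 40 genes was 6439 and 7112 in KO cells with TGF-β, against 7842 and 9100 in untreated KO cells, and 4910 and 4932 in WT cells with TGF-β, against 6368 and 6951 in untreated WT cells. The 15 glycolytic enzyme genes summed to 3885 and 4343 TPM in KO cells with TGF-β, against 4606 and 5345 TPM in untreated KO cells, and to 2924 and 2880 TPM in WT cells with TGF-β, against 3417 and 3712 TPM in untreated WT cells.

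A wider set of 96 genes of the same pathways, of which 70 were tested, showed 14 higher and 29 lower with TGF-β in KO cells, where 20.9% of all tested genes were higher and 20.6% lower, and 14 higher and 27 lower in WT cells, where 21.3% were higher and 21.2% lower. The share that was higher was near that of all genes in both lines. In gluconeogenesis 3 of 4 tested genes fell in KO and 4 of 4 in WT cells, among them Fbp2, a fructose bisphosphatase, with log2 changes of -4.04 ± 0.20 and -4.02 ± 0.19. In the pentose phosphate pathway 5 of 7 fell and 1 rose in each line. In the glycogen list 3 of 9 fell in each line, and 1 rose in KO and 2 in WT cells. Those that fell in both lines include Ugp2, which makes UDP-glucose, with log2 changes of -1.43 ± 0.11 in KO and -1.17 ± 0.11 in WT cells. Of the other glycolytic isoforms Eno3, the muscle enolase, rose by 1.79 ± 0.12 in KO and 1.72 ± 0.12 in WT cells, and Pklr, a second pyruvate kinase gene, fell by 0.78 ± 0.14 in KO and by 1.90 ± 0.14 in WT cells, a KO minus WT difference of 1.12 ± 0.20 (adjusted p = 0.0141). Among 20 tested further hypoxia-induced genes 7 rose and 7 fell in KO cells and 7 rose and 6 fell in WT cells. Plod2, a collagen lysyl hydroxylase, rose by 2.29 ± 0.13 in KO and 3.03 ± 0.14 in WT cells. Car12, a carbonic anhydrase, fell by 1.59 ± 0.21 in KO and 1.56 ± 0.22 in WT cells. Between the lines 11 of the 70 were higher and 6 lower in KO cells with TGF-β, where 6.82% of all tested genes were higher and 11.1% lower, and 12 were higher and 8 lower without it, where 4.72% were higher and 8.94% lower. Plod2 was higher by 1.18 ± 0.14 in untreated KO cells, and the glycogen primer gene Gyg lower by -1.33 ± 0.10 with and -1.16 ± 0.10 without TGF-β, on chromosome 3, where the median of 764 tested genes was -0.30 and -0.28.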

How the data were processed

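The submitters' processing notes name STAR 2.7.1a, featureCounts 1.6.2, DESeq2 1.26.0 and the build GRCm38 (mm10). The deposited files hold raw counts per gene. Which annotation and strand setting were used is not stated. The authors' deposited normalized signal table equals these counts divided by 1 number per library (to 0.00494%), and was not tested.

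All 55450 identifiers were found in GENCODE M21. Genes were filtered with filterByExpr (minimum count 10), scaled by TMM (0.98 to 1.02) and fitted in edgeR 4.0.16 (R 4.3.3) with 1 mean per group, 4 residual degrees of freedom and no replicate block. Benjamini-Hochberg adjustment covered all tested genes of each of 5 contrasts, and the script was tested on simulated data. Errors of log2 changes are SE. TPM used exon lengths of M21. DESeq2 1.42.0 was an alternative.

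The members and lists were chosen with earlier results of these data known. All members are named. Values per library are given for those past a log2 change of 1 whose average log2 CPM was 1 or more, and for HIF genes and rate-setting enzymes. Other pathway genes were named from those called with a log2 change of at least 1. A result among them is not reported here. The Aldoa symbol has 2 identifiers, and ENSMUSG00000030695 was used.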

Additional observations from a re-analysis of the deposited data

Results flagged for a closer look

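Ddit4 is listed because its TGF-β change differed between the lines by a test of the difference itself, with a KO minus WT difference of 1.40 on the log2 scale. Its level was 83.9 and 113 CPM in KO cells with TGF-β, against 28.9 and 47.5 CPM in untreated KO cells, and 83.4 and 77.7 CPM in WT cells with TGF-β, against 83.1 and 82.7 CPM in untreated WT cells. The untreated KO libraries are also the pair in which 29 of 34 tested members were higher in the second library, Ddit4 among them. Leaving out the first of them gave a difference of 1.09 and leaving out the second 1.81, both past the threshold. The difference did not pass without the first WT library with TGF-β (adjusted p = 0.0827), the second (adjusted p = 0.102) or the second KO library with TGF-β (adjusted p = 0.131). With 2 libraries per group no group was large enough for a search for a library far from the rest.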

How the results depend on the processing

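Of 73 called member results, tried under 16 alternatives (1154 pairs), 0 changed sign and 80 pairs lost the call, 68 of them by leaving out a library and 12 under another setting. In 27 results a call was lost at least once. The cause of the moves given here was not tested.

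Without TGF-β, the count of members differing between KO and WT cells was 17 with no filter on low counts and 17 with a replicate block, against 10. Over all genes these settings gave 2490 of 30946 and 2659 of 14641, against 2000 of 14641. The count over all genes was 1111 with only the libraries of the compared groups and 1008 without chromosomes 3, 8, 15 and X, against 2000. In these 2 settings 7 of 34 and 9 of 27 members passed. With TGF-β, leaving out each library gave 7 to 18 members and 1188 to 2922 genes, and 1529 genes were called without those chromosomes, against 15 and 2618. For the difference of TGF-β changes, 5 members passed with no filter, 2 in DESeq2, 3 with the replicate block and 0 to 3 leaving out each library, against 1. Over all genes it was 855 with no filter, 679 with the block and 120 to 421 leaving out each library, against 352. Leaving out each library gave 19 to 29 members called for TGF-β in KO cells, 16 to 20 in WT cells and 9 to 13 for untreated KO against WT cells.

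Whether replicate numbers pair the libraries was not settled. The correlations of same-numbered deviations were all positive and ran from 0.022 to 0.308, with the highest between the untreated KO and untreated WT groups. Not all were over 0.1, and the main fit used no replicate block. Counts near 0 limit Pfkp, Bnip3 and the 6 untested members.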
